A study of Sus scrofa with 6 samples.

Results

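Interferon-stimulated genes are the antiviral and immune genes that cells switch on in answer to interferons, and 34 of them were chosen by name, of which the deposited table of 17109 genes held 32. IFIT5 and SAMD9 had no entry under their symbols. The 32 genes were read in the livers of 3 WT Bama minipigs (WT1, WT2 and WT3) and 3 ASGR1+/- minipigs (S03, S04 and S05), all fasted overnight and given no drug or virus, with 1 RNA library per animal. The ASGR1+/- pigs carried 1 allele of ASGR1 from which CRISPR/Cas9 had cut the last bases of an intron with the first bases of the next exon, beside 1 WT allele. ASGR1 makes the main chain of the receptor by which hepatocytes take up asialoglycoproteins. The line was founded by nuclear transfer from fibroblast colonies, the pigs of an experiment were young and of nearly the same age, and the study's methods describe all the pigs it made as male apart from 1 female. The labels do not state the sex of each library. The study set S03 aside after its principal-component analysis, so S04 and S05 were compared with WT first, S03 is shown apart, and a fit with all 6 libraries follows.

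Type I and type III interferons signal through receptor-bound JAK kinases to a complex that holds STAT2 and IRF9 and turns on the interferon-stimulated genes. The products sense foreign RNA and DNA, block translation, degrade RNA, trap virions at membranes and attach the small protein ISG15 to other proteins, and some of them, such as USP18, dampen the pathway. Hepatocytes, macrophages, endothelial cells and lymphocytes can all express these genes, so in bulk liver fewer cells of a type and less RNA per cell cannot be told apart.

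Levels are given as TPM, the authors' share of transcripts per gene, which are scaled for gene length and can be compared between genes. Fold changes come from the estimated counts, tested with edgeR with TMM scaling over all genes, and a gene passed at an adjusted p of 0.05 or less. The libraries held 15397758 (S03) to 16237721 (WT3) counts. ASGR1 itself ranged from 305 to 452 TPM in WT and stood at 369.9 (S04), 367 (S05) and 485 TPM (S03), so a sum over the whole gene did not separate the genotypes. Hepatocyte markers, 12 of 12 on the list, had counts in every library, and their summed TPM was 72970 to 137500 in WT livers, 44050 in S04, 47210 in S05 and 64200 in S03. The markers did not all move together. FGA stood at 5553 to 9361 TPM in WT, 15590 in S04 and 18640 in S05. With S04 and S05 against WT, the 12 had a median log2 fold change of -0.91. Before adjustment, edgeR gave 7 of them a negative change with p below 0.05 and 1 a positive change. None passed after adjustment. Albumin (ALB) ranged from 27910 to 74680 TPM in WT and stood at 6928 (S04), 10070 (S05) and 24960 TPM (S03), and since TPM sum to a fixed total, list counts were repeated in CPM with TMM scaling. The genes of chromosome Y summed to 22.1 TPM in S03 and to 327 to 468 in the others, so S03 differs from the others in sex-linked transcripts as well as in its place in the study.

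All 32 interferon-stimulated genes were higher in S04 than in any WT library, and this 1 animal set most of the difference between the genotypes. With S04 and S05 against WT, each of the 32 had a log2 fold change above 0, with a median of 0.95, while the median over all 13401 genes tested was 0.003 and 50.2% of them were above 0. None of the 32 passed with edgeR, where 0.791% of all genes tested passed, and the smallest adjusted p among the members was 0.0528 (USP18). At an unadjusted p under 0.05, 18 of 32 were higher and none lower with edgeR, where 8.89% of all genes were higher and 20.9% were under it in either direction. DESeq2, the tool of the study, passed 12 of 32 as higher and none as lower, where it passed 3.26% of all genes as higher and 6.30% as lower. When S04 was left out, so that S05 alone stood against WT and was assumed to vary as the WT livers do, the median log2 fold change was 0.17, with 20 genes above 0 and 12 below. Without S05 it was 1.42, and all 32 were above 0. Of all genes tested, 48.44% were above 0 without S04 and 48.55% without S05.

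**Figure D1:**
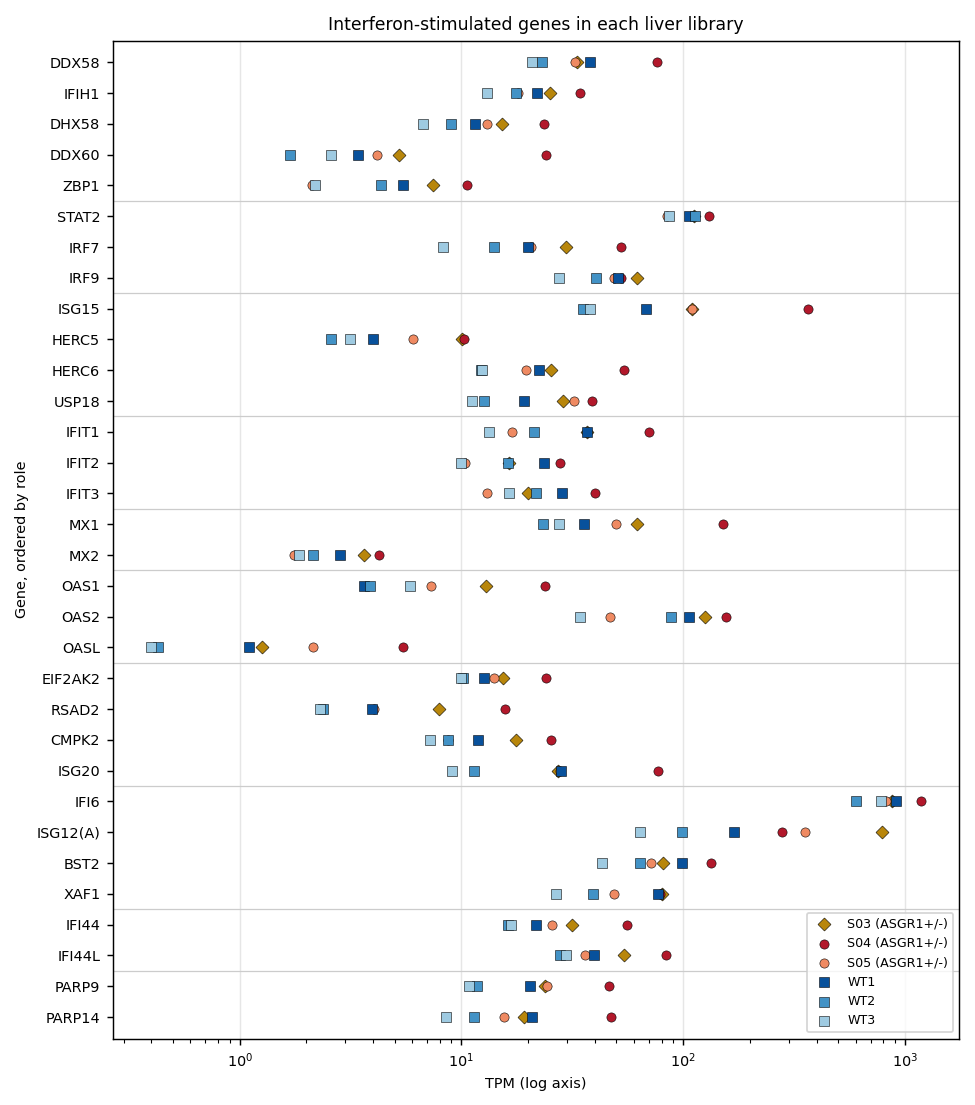
Each row is a gene, ordered by role, and the x axis is its TPM on a log scale, with 1 point per library (red and orange circles S04 and S05, diamonds S03, blue squares WT). The red point of S04 lies to the right of all 3 WT points in all 32 rows, while S05 lies among or near the WT points in many of them.

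The libraries can be ordered by these genes. In CPM, S04 held the highest of the 6 values for 30 of the 32 genes and S03 for the other 2, where S04 held the highest value for 14.7% of all genes tested and S03 for 16.9%. The lowest value was in WT2 for 14 genes, in WT3 for 11, in S05 for 6 and in WT1 for 1. Of all genes tested, 13.19% were lowest in WT2, 18.35% in WT3, 21.55% in S05 and 14.98% in WT1. The share of members lowest in S05 did not exceed that of all genes, so it is not read as particular to the members. On the log2 CPM scale, the median deviation of the 32 genes from their own means over the 6 libraries was 1.05 in S04, 0.17 in S03, -0.09 in WT1, -0.14 in S05, -0.48 in WT2 and -0.53 in WT3. Over all genes tested it stayed between -0.007 and 0.004 in every library. WT1 had the highest of the 3 WT values for 27 of the 32 genes, so the WT livers also differed among themselves across most members. The same share over all genes was not computed, so this count is not read as particular to the members. S05, S03 and WT1 lay close together, and the order was not one of genotype.

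**Figure D2:**
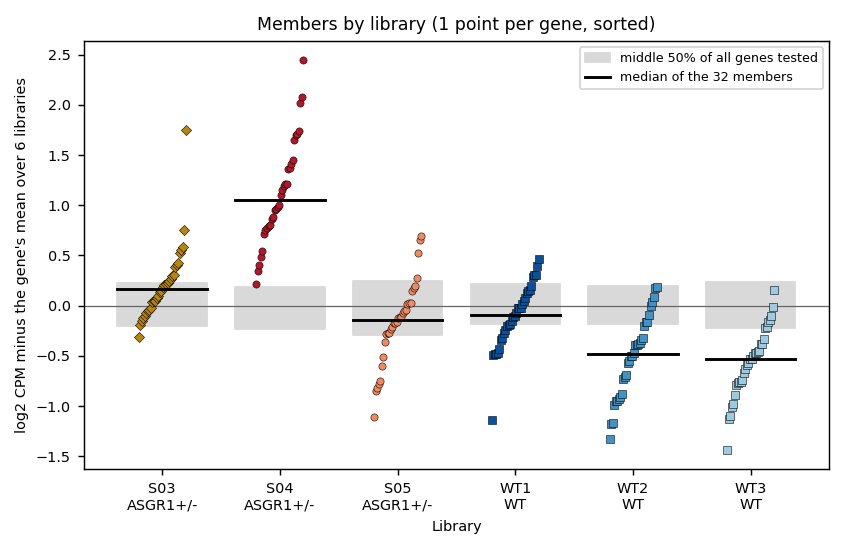
Points are the 32 genes in each library, sorted, plotted as log2 CPM minus the gene's mean over the 6 libraries; the black line is their median and the grey band the middle 50% of all genes tested. The median is 1.05 in S04 and between -0.53 and 0.17 in the other 5 libraries.

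Counted by library, 32 of 32 genes in S04, 23 in S03 and 14 in S05 were above every WT library in CPM. The same holds for 29.7%, 29.5% and 33.8% of all genes tested, so the share of S05 (43.8%) was not far from that of all genes, whereas those of S04 (100%) and S03 (71.9%) were. S04 exceeded S05 for 31 of 32 genes in CPM, where it did so for 49.4% of all genes. S05 was below every WT library for 6 genes and within the WT range for 12. The same shares over all genes were not computed, so these counts are not read as particular to the members.

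The spread within each genotype was wide for these genes. The SD of log2 CPM had a median of 0.32 over the 32 genes in the 3 WT libraries, against 0.24 over all genes tested, and of 0.95 in S04 and S05, against 0.21 over all genes. It was larger in S04 and S05 than in WT for 29 of the 32 genes, where that was so for 45.8% of all genes. In TPM, S04 over S05 ran from 0.78-fold (ISG12(A)) to 5.76-fold (DDX60) with a median of 2.49-fold. The highest WT library over the lowest ran from 1.26-fold (EIF2AK2) to 3.12-fold (OAS2) with a median of 1.83-fold. The ratio between the 2 ASGR1+/- livers exceeded the full WT range for 24 of the 32 genes, although the WT range is drawn from 3 animals. How often this was so over all genes was not computed, so the 24 are not read as particular to the members.

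**Figure D3:**
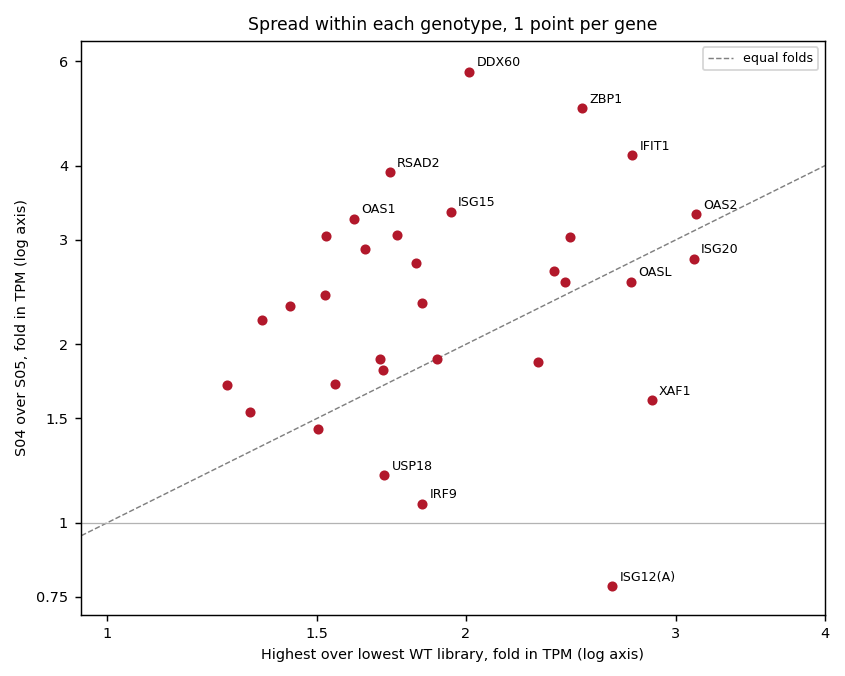
Each point is a gene; the x axis is the highest over the lowest WT library and the y axis S04 over S05, both as folds in TPM on log axes, with a dashed line where the folds are equal. Of the 32 points, 24 lie above the line, DDX60 highest at 5.76-fold, and ISG12(A) alone lies under 1.

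Of the 32 genes, some were above every WT library in both S04 and S05. There were 14 such genes in TPM (23.1% of all genes tested) and 14 in CPM (19.0%), with OAS1 in the first set and ISG20 in its place in the second. With S03 as well, the numbers were 14 in TPM (17.4% of all genes) and 13 in CPM (9.94%). The genes on both scales with all 3 ASGR1+/- livers above WT were DHX58, DDX60, IRF7, ISG15, HERC5, USP18, MX1, OASL, EIF2AK2, RSAD2, ISG12(A), IFI44 and PARP9.

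Of the 4 genes of ISG15 conjugation, 3 were above every WT library in each ASGR1+/- liver, as were 17.4% of all genes in TPM and 9.94% in CPM. ISG15 is the ubiquitin-like protein, HERC5 the ligase that attaches it in humans and HERC6 the one that does so in mice, and USP18 removes it and also holds back the type I receptor. ISG15 (gene ID 100145895, chromosome 6 of Sscrofa11.1 from 63363201 to 63364211) stood at 68.3 (WT1), 35.2 (WT2) and 38.2 TPM (WT3), and at 367 (S04), 109.7 (S05) and 109 TPM (S03). Its groups did not overlap, and S05 and S03 were nearly equal. The log2 fold change was 2.27 (standard error, SE, 0.49, adjusted p = 0.0771 by edgeR), and 1.11 when S04 was left out. USP18 (chromosome 5, 70183321 to 70227990) was among the members in which S04 and S05 were close to each other, at 1.20-fold in TPM. It stood at 19.1 (WT1), 12.7 (WT2) and 11.2 TPM (WT3), and at 38.8 (S04), 32.3 (S05) and 28.8 TPM (S03). The log2 fold change was 1.24 (SE 0.21, adjusted p = 0.0528 by edgeR and 0.000211 by DESeq2), and 1.05 without S04. All 3 ASGR1+/- livers thus lay above all 3 WT livers for USP18, with a gap that did not rest on 1 animal.

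HERC5 and HERC6 are neighbours on chromosome 8 (130532256 to 130591158, and 130594941 to 130665591), and they differed in how S05 and S03 behaved. HERC5 stood at 4.01 (WT1), 2.58 (WT2) and 3.13 TPM (WT3), and at 10.3 (S04), 6.02 (S05) and 10.04 TPM (S03). S03 was as high as S04, and the log2 fold change was 1.25 (SE 0.29, adjusted p = 0.0849 by edgeR). HERC6 stood at 22.3 (WT1) and 12.3 TPM (both WT2 and WT3), and at 53.9 (S04), 19.6 (S05) and 25.3 TPM (S03). Here S05 fell within the WT range, so the log2 fold change of 1.20 (SE 0.43, adjusted p = 0.186 by edgeR) became 0.23 without S04.

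Of the 5 sensors of RNA and DNA, DESeq2 passed DDX60, and in all 5 S04 held the highest value. DDX58 encodes RIG-I and IFIH1 its relative that binds long RNA duplexes, DHX58 modulates both, DDX60 is a related helicase, and ZBP1 senses nucleic acid in the Z form and can start necroptosis. DDX60 (chromosome 14, 21077491 to 21163563) stood at 3.40 (WT1), 1.69 (WT2) and 2.57 TPM (WT3), and at 24.0 (S04), 4.17 (S05) and 5.25 TPM (S03). All 3 ASGR1+/- livers were above WT, but S04 stood 5.76-fold above S05, the widest gap of any member. Its log2 fold change was 2.41 (SE 0.67, adjusted p = 0.118 by edgeR), and 0.57 without S04. DHX58 stood at 11.5 (WT1), 8.99 (WT2) and 6.73 TPM (WT3), and at 23.5 (S04), 13.0 (S05) and 15.3 TPM (S03). Its groups did not overlap either, with a log2 fold change of 0.95 (SE 0.29, adjusted p = 0.142 by edgeR). DDX58 stood at 38.2 (WT1), 23.1 (WT2) and 20.8 TPM (WT3), and at 75.9 (S04), 32.4 (S05) and 33.4 TPM (S03). S05 and S03 were both below WT1, and the log2 fold change of 0.95 (SE 0.38, adjusted p = 0.225 by edgeR) became 0.14 without S04. ZBP1 ran from 2.13 TPM in S05 to 10.7 in S04, with WT at 2.19 to 5.48, so the ASGR1+/- livers held both the lowest and the highest value. IFIH1 ran from 18.1 TPM in S05 to 34.1 in S04, with WT at 13.0 to 22.0.

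Of the transcription factors, IRF7 alone was apart from WT in each ASGR1+/- liver. IRF7 drives the later wave of type I interferon genes and is itself interferon-induced, whereas STAT2 and IRF9 form the factor that starts the response. IRF7 (chromosome 2, 372235 to 375572) stood at 20.0 (WT1), 14.1 (WT2) and 8.26 TPM (WT3), and at 52.3 (S04), 20.5 (S05) and 29.5 TPM (S03). S05 was just above WT1, so the absence of overlap rests on a small margin, and the log2 fold change was 1.38 (SE 0.43, adjusted p = 0.145 by edgeR and 0.0333 by DESeq2). STAT2 ranged from 85.0 TPM in S05 to 131 in S04, with WT at 86.0 to 113, a log2 fold change of 0.001. IRF9 ranged from 27.6 to 50.7 TPM in WT and from 48.7 (S05) to 61.8 TPM (S03) in ASGR1+/- livers, and with S04 at 1.08-fold of S05 it was the member whose 2 ASGR1+/- livers were nearest to each other.

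The MX GTPases, which bind viral nucleoproteins, lie beside each other on chromosome 13 and had unlike values. MX1 (204843049 to 204868927) stood at 35.7 (WT1), 23.4 (WT2) and 27.5 TPM (WT3), and at 151 (S04), 49.6 (S05) and 61.8 TPM (S03). Every ASGR1+/- liver was above every WT liver, and the log2 fold change was 1.73 (SE 0.44, adjusted p = 0.101 by edgeR and 0.00401 by DESeq2), or 0.65 without S04. MX2 (204798633 to 204821612) was low in all livers, with 1.76 TPM in S05, 4.27 in S04 and 1.86 to 2.83 in WT, and a log2 fold change of 0.34 (SE 0.44).

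Within the OAS family, OAS1 and OASL had high fold changes and OAS2 did not. OAS1 and OAS2 make the short oligoadenylates that activate RNase L, and OASL is a relative that in humans makes none and acts on RIG-I signalling. OAS1 (chromosome 14, 38851083 to 38867427) stood at 3.65 (WT1), 3.88 (WT2) and 5.88 TPM (WT3), and at 23.8 (S04), 7.31 (S05) and 13.0 TPM (S03). The groups did not overlap in TPM, but in CPM S05 (6.75) and WT3 (6.83) were level, and the log2 fold change was 1.69 (SE 0.54, adjusted p = 0.152 by edgeR). OAS1 was also a member for which WT3, not WT1, was the highest WT library. OASL had the highest log2 fold change of the 32, 2.50 (SE 0.60, adjusted p = 0.0905 by edgeR), on the lowest level, standing at 1.10 (WT1), 0.43 (WT2) and 0.40 TPM (WT3), and at 5.46 (S04), 2.14 (S05) and 1.26 TPM (S03). Those values stand on 13, 5 and 5 WT counts and on 68, 25 and 15 ASGR1+/- counts, so counting error is part of the spread of OASL, and S03 exceeded WT1 by only 2 counts. OAS2 (38827667 to 38847697), the next gene to OAS1, had 34.2 TPM in WT3 and 107 in WT1, and both S05 (47.0) and the log2 fold change of 0.38 (SE 0.56) lay inside that spread.

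Enzymes that act on RNA and nucleotides followed S04 too. EIF2AK2 encodes PKR, the kinase that stops translation when it binds double-stranded RNA, RSAD2 encodes viperin, which makes a chain-terminating nucleotide, CMPK2 is a nucleotide kinase of mitochondria and ISG20 an exonuclease. RSAD2 stood at 3.97 (WT1), 2.37 (WT2) and 2.30 TPM (WT3), and at 15.7 (S04), 4.03 (S05) and 7.89 TPM (S03). S05 and WT1 were nearly equal, while S03 was clearly higher, and the log2 fold change was 1.73 (SE 0.54, adjusted p = 0.146 by edgeR). CMPK2, its neighbour on chromosome 3, ranged from 7.18 to 11.8 TPM in WT and stood at 25.3 (S04), 8.73 (S05) and 17.7 TPM (S03), and its log2 fold change was 0.83 (SE 0.42). ISG20 stood at 28.2 (WT1), 11.4 (WT2) and 9.07 TPM (WT3), and at 77.3 (S04), 27.7 (S05) and 27.2 TPM (S03). WT1 was level with S05 and S03, so that only S04 stood apart, and the log2 fold change was 1.67 (SE 0.53, adjusted p = 0.149 by edgeR and 0.0303 by DESeq2). EIF2AK2 had the narrowest WT range, at 12.6 (WT1), 10.2 (WT2) and 10 TPM (WT3), and stood at 24.0 (S04), 14.1 (S05) and 15.3 TPM (S03). Its groups were apart by a small margin, with a log2 fold change of 0.67 (SE 0.27, adjusted p = 0.218 by edgeR).

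The ADP-ribosyl transferases PARP9 and PARP14, which act in interferon signalling, lie close to each other on chromosome 13. PARP9 stood at 20.4 (WT1), 11.8 (WT2) and 10.8 TPM (WT3), and at 46.2 (S04), 24.4 (S05) and 23.9 TPM (S03). Its groups did not overlap, and the log2 fold change was 1.25 (SE 0.33, adjusted p = 0.105 by edgeR and 0.0131 by DESeq2). PARP14 stood at 20.9 (WT1), 11.4 (WT2) and 8.52 TPM (WT3), and at 47.1 (S04), 15.5 (S05) and 19.2 TPM (S03). S05 and S03 were within the WT range, and the log2 fold change of 1.18 (SE 0.49, adjusted p = 0.234 by edgeR) became 0.10 without S04.

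IFI44 and IFI44L, another pair of neighbours (chromosome 6, 134634679 to 134649857 and 134660230 to 134679212), encode related proteins with antiviral effects in cultured cells. IFI44 stood at 21.8 (WT1), 16.2 (WT2) and 16.7 TPM (WT3), and at 56.1 (S04), 25.5 (S05) and 31.5 TPM (S03). All 3 ASGR1+/- livers were above WT, with a log2 fold change of 1.09 (SE 0.34, adjusted p = 0.144 by edgeR). IFI44L had 36.2 TPM in S05, 84.1 in S04 and 54.0 in S03, and S05 was within the WT range of 28.0 to 39.8.

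ISG12(A) was highest in S03, as IRF9 was, and was the 1 member with S05 above S04 in CPM. It belongs to the family of small hydrophobic proteins that includes human IFI27, a gene much used as a marker of interferon responses. ISG12(A) (chromosome 7, 115356619 to 115361537) stood at 170.2 (WT1), 99.3 (WT2) and 64.1 TPM (WT3), and at 788 (S03), 356 (S05) and 279 TPM (S04). S03 was the highest and S04 the lowest of the ASGR1+/- livers, and all 3 were above all WT livers. The log2 fold change was 1.46 (SE 0.29, adjusted p = 0.0696 by edgeR and 0.000626 by DESeq2), 1.97 with S03 (SE 0.41, adjusted p = 0.0951 by edgeR), and 1.59 without S04. It was the 1 member whose value without S04 was above that with it.

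The most abundant member was IFI6, a small protein of mitochondria and the endoplasmic reticulum, which had a small fold change. It stood at 909 (WT1), 605 (WT2) and 778 TPM (WT3), and at 1181 (S04), 819.9 (S05) and 878 TPM (S03). S05 and S03 were within the WT range, and the log2 fold change of 0.29 (SE 0.26, adjusted p = 0.571 by edgeR) was -0.04 without S04. BST2, the tether that holds virions at the cell surface, and XAF1, which favours apoptosis, had log2 fold changes of 0.53 and 0.38, and S05 was within the WT range for both.

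The IFIT genes, which bind viral RNA ends and translation factors and lie in a cluster on chromosome 14, had log2 fold changes below 0 when S05 alone stood against WT. IFIT1 (101237403 to 101249486) stood at 36.8 (WT1), 21.2 (WT2) and 13.3 TPM (WT3), and at 70.4 (S04), 16.9 (S05) and 36.7 TPM (S03). S03 and WT1 were equal and S05 was among the lowest, so the log2 fold change of 0.86 (SE 0.58, adjusted p = 0.454 by edgeR) turned to -0.58 without S04. IFIT2 had 27.8 TPM in S04 and 10.4 in S05, with WT at 9.94 to 23.6. IFIT3 had 39.9 in S04 and 13.0 in S05, below the WT range of 16.3 to 28.6. Their log2 fold changes were 0.14 and 0.18, and without S04 they were -0.84 and -0.92. IFIT3 was the 1 member lower at an unadjusted p under 0.05 without S04 (adjusted p = 0.163 by edgeR), where ISG15, HERC5, USP18, MX1 and ISG12(A) were higher. In that fit 8.65% of all genes were higher and 10.3% lower, so the members' 5 and 1 of 32 came to 15.6% and 3.12%.

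The 2 ASGR1+/- livers therefore differed in which members were high. In S05, USP18, ISG12(A), ISG15, OASL and HERC5 were 1.86-fold (HERC5) to 3.33-fold (OASL) of the WT mean in TPM, while IFIT1, IFIT2, IFIT3, OAS2 and ZBP1 were 0.53-fold (ZBP1) to 0.71-fold (IFIT1) of it. In S04 the same 10 genes were all above the WT mean, from 1.67-fold (IFIT2) to 8.49-fold (OASL). These sets were picked after their values were seen and have no test.

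**Figure D4:**
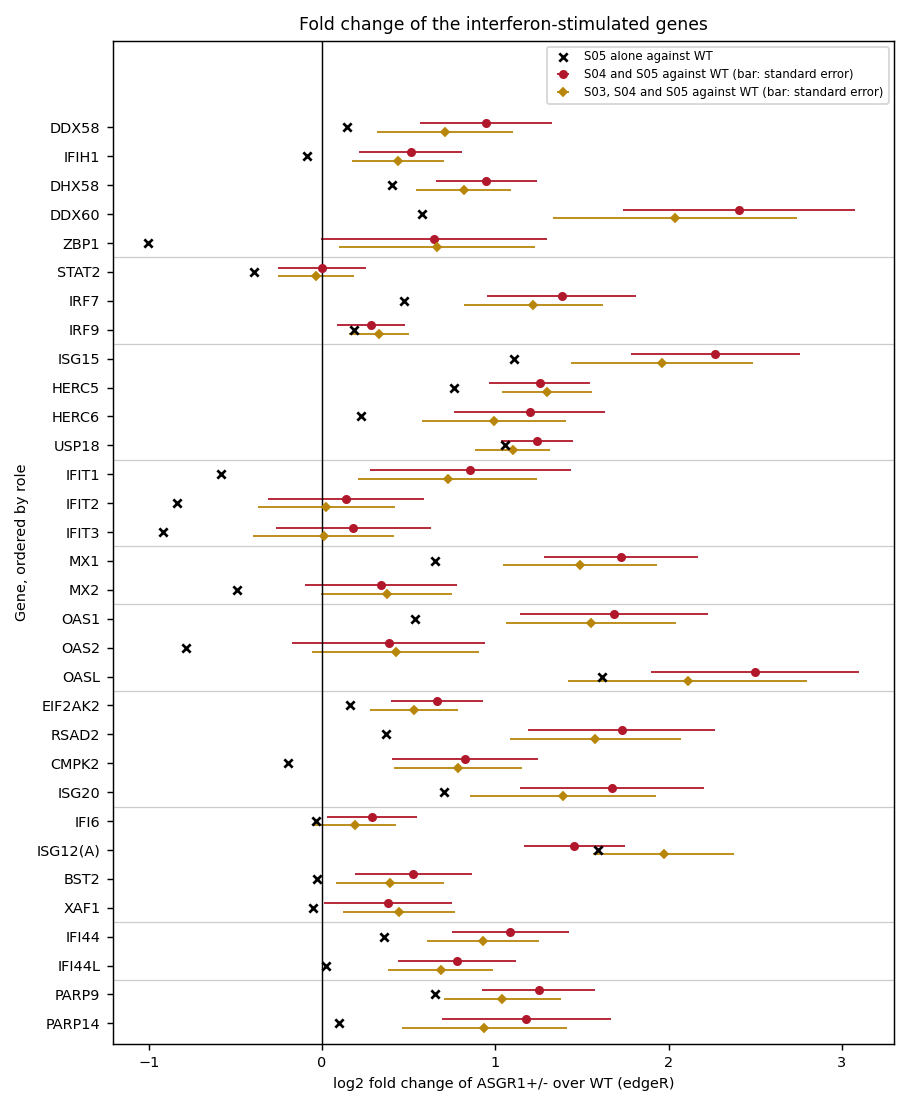
Log2 fold changes of each member from edgeR, with bars for the standard error: red circles S04 and S05 against WT, gold diamonds all 3 ASGR1+/- livers against WT, black crosses S05 alone against WT. All 32 red circles are at or above 0, from 0.001 (STAT2) to 2.50 (OASL), while 12 of the black crosses are below 0.

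With S03 included, the fold changes were slightly smaller. The median was 0.80, against 0.023 for all 13243 genes tested. Of the members, 31 were above 0, where 52.37% of all genes were, and STAT2 was at -0.04. No member passed with edgeR, where 0.136% of all genes did, and 15 of 32 were higher at an unadjusted p under 0.05, where 6.67% of all genes were. DESeq2 passed 8 as higher, where it passed 1.73% of all genes as higher. The 8 were DDX60, ISG15, HERC5, USP18, MX1, OAS1, RSAD2 and ISG12(A), and each was among the 12 that it passed without S03. The smallest adjusted p with edgeR was 0.0917, shared by HERC5 and USP18. Without S04 but with S03 the median was 0.31, with 27 genes above 0 and 5 below, where 52.32% of all genes were above 0.

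Other genes of the interferon pathway, on a list of 113 symbols of which 87 were in the table and 83 tested, gave a similar picture. None passed with edgeR in S04 and S05 against WT (20 were higher with an unadjusted p under 0.05 and 2 lower, beside 8.89% of all genes higher and 20.9% in either direction), whereas 12 higher genes and 1 lower gene were passed by DESeq2, beside 3.26% and 6.30% of all genes. Their median log2 fold change was 0.39, and 0.02 without S04. Interferon transcripts themselves were near the limit of detection: IFNG, which encodes interferon gamma, stood at 15 (WT1), 5 (WT2) and 2 counts (WT3), and at 20 (S04), 5 (S05) and 21 counts (S03), and the 3 other ligands in the table had at most 4 counts in any library. The order of IFNG, with S04, S03 and WT1 above S05, WT2 and WT3, resembled that of many members, but the counts are few.

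Among receptors, IFNGR2, a chain of the interferon gamma receptor, stood at 100.5 (WT1), 48.9 (WT2) and 52.8 TPM (WT3), and at 148 (S04), 206 (S05) and 93.3 TPM (S03), a log2 fold change of 1.32 (SE 0.28, adjusted p = 0.0751 by edgeR and 0.0011 by DESeq2). S05 was the highest, unlike for the members. Of the sensor adaptors and kinases, MAVS and TBK1, which relay the signal of RIG-I, had log2 fold changes of -0.02 and -0.12. MAVS and TBK1 were singled out after their values were seen. TLR3 and TLR8, receptors for RNA in endosomes, were passed by DESeq2 as higher. TLR3 stood at 9.19 (WT1), 5.48 (WT2) and 8.15 TPM (WT3), and at 21.5 (S04), 14.3 (S05) and 11.2 TPM (S03), with a log2 fold change of 1.14 (SE 0.29, adjusted p = 0.0981 by edgeR and 0.0145 by DESeq2). TLR8 stood at 5.78 (WT1), 2.93 (WT2) and 2.04 TPM (WT3), and at 8.29 (S04), 7.12 (S05) and 4.44 TPM (S03), with a log2 fold change of 1.08 (SE 0.33, adjusted p = 0.141 by edgeR and 0.0491 by DESeq2). S03 was above every WT liver for TLR3 and below WT1 for TLR8.

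Further type I interferon-stimulated genes had a median log2 fold change of 0.57 over 34 tested, and 0.05 without S04. DESeq2 passed 6 of them, all higher, where it passed 3.26% of all genes as higher. DTX3L, the ligase partner of PARP9, stood at 7.02 (WT1), 5.09 (WT2) and 5.01 TPM (WT3), and at 17.7 (S04), 11.8 (S05) and 9.5 TPM (S03), with a log2 fold change of 1.295 (SE 0.23, adjusted p = 0.0587 by edgeR). ADAR, the enzyme that edits double-stranded RNA, stood at 10.5 (WT1), 9.95 (WT2) and 6.82 TPM (WT3), and at 16.4 (S04), 15.5 (S05) and 15.9 TPM (S03), with a log2 fold change of 0.74 (SE 0.17, adjusted p = 0.0840 by edgeR). The genotypes overlapped for neither gene, and for ADAR the 3 ASGR1+/- livers were level. IFITM1, which hinders the entry of viruses at membranes, stood at 126 (WT1), 80.1 (WT2) and 46.5 TPM (WT3), and at 312 (S04), 220.2 (S05) and 197 TPM (S03), a log2 fold change of 1.61 (SE 0.32, adjusted p = 0.0689 by edgeR). All 3 ASGR1+/- livers were above WT. Its relative IFITM3 stood at 595 (WT1), 335 (WT2) and 306 TPM (WT3), and at 1351 (S04), 826 (S05) and 729.6 TPM (S03), with a log2 fold change of 1.32 (SE 0.27, adjusted p = 0.0703 by edgeR). IFI35 stood at 49.7 (WT1), 37.1 (WT2) and 40.9 TPM (WT3), and at 117 (S04), 68.8 (S05) and 51.2 TPM (S03), with a log2 fold change of 1.04 (SE 0.26, adjusted p = 0.0978 by edgeR). IFITM3 was apart from WT in each ASGR1+/- liver, whereas for IFI35 S03 and WT1 were nearly level.

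UBE2L6, the enzyme that carries ISG15 to its ligases, stood at 52.0 (WT1), 27.3 (WT2) and 20.3 TPM (WT3), and at 217 (S04), 64.1 (S05) and 77.1 TPM (S03), and its log2 fold change of 2.02 (SE 0.52, adjusted p = 0.102 by edgeR) was near that of ISG15. All 3 ASGR1+/- livers were above every WT liver in TPM, and S05 and S03 were much nearer to WT1 than S04 was. CD274, which encodes the checkpoint ligand PD-L1, had the highest log2 fold change of the list, 2.46 (SE 0.70, adjusted p = 0.123 by edgeR), at 6.17 (WT1), 3.38 (WT2) and 1.67 TPM (WT3), and at 35.4 (S04), 7.38 (S05) and 7.39 TPM (S03). S04 alone stood far from WT1.

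Genes that answer mainly to interferon gamma had the highest median, 1.11 over 12 tested, and it was -0.15 without S04. CXCL9, a chemokine for T cells, stood at 375 (WT1), 149.8 (WT2) and 77.1 TPM (WT3), and at 753 (S04), 399 (S05) and 493 TPM (S03), a log2 fold change of 1.51 (SE 0.51, adjusted p = 0.165 by edgeR and 0.0417 by DESeq2). IDO1, which degrades tryptophan, stood at 29.9 (WT1), 7.37 (WT2) and 5.43 TPM (WT3), and at 65.8 (S04), 35.6 (S05) and 23.0 TPM (S03), with a log2 fold change of 1.83 (SE 0.62, adjusted p = 0.167 by edgeR and 0.0357 by DESeq2). S03 was below WT1 for IDO1, and above every WT liver for CXCL9. WARS, the tryptophanyl-tRNA synthetase, stood at 27.0 (WT1), 18.7 (WT2) and 17.5 TPM (WT3), and at 58.8 (S04), 36.9 (S05) and 25.1 TPM (S03), with a log2 fold change of 1.12 (SE 0.25, adjusted p = 0.0804 by edgeR and 0.00499 by DESeq2). CXCL10, another chemokine of this class, is given for the size of its spread and was chosen after its values were seen: it stood at 667 (WT1), 195 (WT2) and 102 TPM (WT3), and at 1499 (S04), 231 (S05) and 631 TPM (S03). SECTM1 was lower, at 17.8 (WT1), 9.58 (WT2) and 7.81 TPM (WT3), and at 3.62 (S04), 6.17 (S05) and 6.23 TPM (S03), with a log2 fold change of -1.33 (SE 0.37, adjusted p = 0.12 by edgeR and 0.0213 by DESeq2). All 3 ASGR1+/- livers were below WT.

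**Figure D5:**
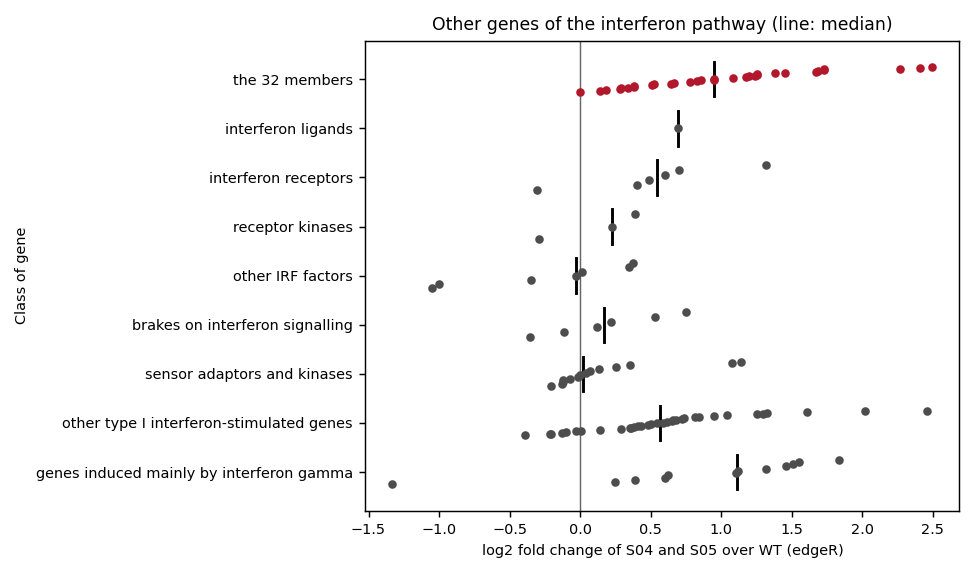
Each point is the log2 fold change of a gene in S04 and S05 over WT from edgeR, by class, with the 32 members in red on top and a black line at each median. Medians are 0.95 for the members, 0.57 for other type I interferon-stimulated genes, 1.11 for genes of interferon gamma and 0.02 for sensor adaptors and kinases.

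S04, the highest library for most members, had the highest sum for none of the lists of immune cell markers. The TPM of 18 markers of NK and T cells summed to 229 to 649.6 in WT livers and to 247 (S04), 193 (S05) and 521 (S03). Those of 12 markers of macrophages and Kupffer cells summed to 1866 to 3821 in WT livers and to 1839 (S04), 2305 (S05) and 1704 (S03). For 7 markers of B and plasma cells the sums were 174 (WT1), 36.7 (WT2), 37.3 (WT3), 107 (S04), 74.7 (S05) and 149 (S03). WT2 and WT3 were lowest for these markers, as they were for most members. For 6 markers of dendritic cells the WT sums were 17.9 to 47.0, beside 33.6 (S04), 41.9 (S05) and 33.2 (S03). CLEC9A was at 0 in at least 1 library. S04 was thus within or below the WT range for each of these 4 lists. The 7 markers of neutrophils summed to 11.2 to 20.0 in WT livers and to 45.7 (S04), 52.0 (S05) and 47.2 (S03). The higher sums came from S100A8, S100A9, S100A12 and CSF3R, whereas CXCR2 in S04 (0.73 TPM) was below every WT liver, MMP9 was at 0 in S04 and S05, and of the 6 tested none passed with edgeR (3 higher at an unadjusted p under 0.05) and 2 with DESeq2. Of all genes, 8.89% were higher at that p with edgeR, and DESeq2 passed 3.26% as higher and 6.30% as lower. Erythroid markers summed to 452 to 1214 TPM in WT livers and to 17.9 (S04), 109.6 (S05) and 5223 TPM (S03). The part of these cells in the values of the interferon-stimulated genes was not tested.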

How the data were processed

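Liver RNA of 6 pigs was sequenced on the BGISEQ platform, and the labels' genotypes gave the groups, 3 ASGR1+/- and 3 WT. The authors cleaned reads with SOAPnuke and used HISAT for genome alignment and Bowtie2 for reference genes (HISAT2 2.0.4 and Sscrofa11.1 in the submitters' processing notes). The deposited estimated counts per gene are not normalized, and the tool behind them and its use of strand are not given in the sources used here. The deposited TPM and FPKM were computed by the authors. FPKM and the group averages were not used here. Genes of families with similar sequence (IFIT, OAS, MX, ISG12) may share reads.

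Counts were rounded (12.0% of cells were not whole). All 17109 gene IDs matched the RefSeq table of Sscrofa11.1, the source of coordinates. The quasi-likelihood test of edgeR 4.0.16 (R 4.3.3) was fitted to all genes with TMM scaling, filterByExpr with a minimum count of 10 and Benjamini-Hochberg adjustment, without and with S03. All 32 members passed the filter in both fits. Each standard error was obtained by dividing the log2 fold change by the square root of its F statistic. DESeq2 1.42.0 and limma 3.58.1 on log2(TPM + 1) or log2(TPM + 0.1), other scalings, no filter and leaving out each library were alternatives, and fits were tested on simulated data. Log2 CPM used a prior count of 2. An animal was the replicate, and members stood on 5 (OASL) to 6883 counts per library. Full values were given for members with an unadjusted p under 0.05 in either fit, the member with the largest fold change of each role and the 3 with the highest TPM, and for listed pathway genes passed by either tool or among the 3 largest changes. Members, roles, pathway genes and markers were chosen with earlier results of these data known. A listed pathway gene is not reported here and was left out of the pathway counts.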

Additional observations from a re-analysis of the deposited data

How the results depend on the processing

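The number of genes passed depended on the tool and on single libraries, and the cause was not tested. In S04 and S05 against WT, edgeR passed 106 genes and none of the members, DESeq2 1307 genes and 12 members, and limma 183 on log2(TPM + 1) and 231 on log2(TPM + 0.1). With S03, edgeR passed 18 genes, DESeq2 815 genes and 8 members, edgeR with library totals only 3 and edgeR with no filter 63. Leaving out 1 library gave 0 (without S05) to 115 genes (without WT3), 2 without S04, 5 without WT2 and 53 without WT1, and with S03 in the comparison 1 (without S04) to 106. No member passed with edgeR or limma under any of these settings.

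The members' median log2 fold change ran from 0.17 (without S04) to 1.42 (without S05). Of the members given in full, 2 turned direction, both without S04. IFIT1 ran from -0.58 to 1.57 over the leave-one-out fits of S04 and S05 against WT, IFI6 from -0.037 to 0.57, and IFI6 from -0.034 to 0.32 with S03 in the comparison. Of 460 values for these genes under alternatives, 437 kept their direction and side of the threshold, 20 passed only with DESeq2 and 3 turned. Scaling to library totals moved the median of all genes to 0.105, or to 0.183 with S03. All 32 members were then above 0 in both comparisons, where 58.46% of all genes were, or 68.28% with S03. No paired analysis was made, because the labels do not tie any ASGR1+/- pig to a particular WT pig.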
